A study of Mus musculus with 6 samples.

Results

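The pancreatic fibroblasts of this mouse series are 121 of 4929 kept cell barcodes, of 8582 deposited. They were chosen by their own transcripts: a barcode had at least 200 detected genes, at most 20% of its unique molecular identifiers (UMIs, 1 per captured transcript) from mitochondrial genes, UMIs of at least 4 of the 8 genes Dcn, Col1a1, Col1a2, Col3a1, Lum, Pdgfra, Gsn and Serping1, and none of Rgs5, Ptprc and Plvap. Because the cells were selected on these genes, the levels of all genes against other cells are given as a description, with no test.

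The study sequenced single cells of the pancreas from R26[CA]30EYFP mice on a C57Bl/6J background, sorted by EYFP. In this strain a repeat keeps the EYFP reporter at the Rosa26 locus out of frame until a chance replication slip restores it, so that label arises without a cell type-specific driver and is inherited by descendants. Every group carries this allele. Runs 1 and 2, each with an EYFP negative and an EYFP positive library, were untreated (homeostasis), and run 3, again 1 library of each, came 9 days after pancreatitis was induced with cerulein, a secretagogue injected intraperitoneally at 50 ug/kg hourly 7 times a day on 2 consecutive days. The labels give no age, and they name no animals, so whether runs are separate mice is not known and p-values measure the spread between libraries.

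Fibroblasts build and maintain the connective tissue of the pancreas. They secrete fibrillar collagens and small leucine-rich proteoglycans such as decorin (Dcn) and lumican (Lum), and signal through the PDGF receptor encoded by Pdgfra. In many mouse tissues a Pi16 and Dpp4 expressing population lies in the adventitia around vessels and ducts, and a Col15a1 expressing population lies within the parenchyma. In inflammation, fibroblasts can become contractile myofibroblasts, marked by Acta2, or cytokine-secreting cells, marked by Il6.

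The results below turn on genes of the adventitial kind, which were low in pancreatitis, and on Serpine2, which was high. The 300 bases around the start of 3 such adventitial genes, Pi16, Sema3c and Ackr3, and of Serpine2 are shown to place these genes in the genome. They are from RefSeq on GRCm38.p6, cover 250 bases before to 50 bases after the annotated start, and run 5′ to 3′. Capitals mark the TATA box letters TATAAA, the CCAAT box letters CCAAT and the GC box letters GGGCGG, each on either strand, and adjoining matches run together.
Pi16, chr17:29318632-29318931, plus strand: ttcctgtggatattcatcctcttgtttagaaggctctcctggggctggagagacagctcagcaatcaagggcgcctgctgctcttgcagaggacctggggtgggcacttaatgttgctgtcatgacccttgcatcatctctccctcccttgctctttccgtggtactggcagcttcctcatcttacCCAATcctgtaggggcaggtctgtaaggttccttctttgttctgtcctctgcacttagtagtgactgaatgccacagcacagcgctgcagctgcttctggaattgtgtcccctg
Sema3c, chr5:17574566-17574865, plus strand: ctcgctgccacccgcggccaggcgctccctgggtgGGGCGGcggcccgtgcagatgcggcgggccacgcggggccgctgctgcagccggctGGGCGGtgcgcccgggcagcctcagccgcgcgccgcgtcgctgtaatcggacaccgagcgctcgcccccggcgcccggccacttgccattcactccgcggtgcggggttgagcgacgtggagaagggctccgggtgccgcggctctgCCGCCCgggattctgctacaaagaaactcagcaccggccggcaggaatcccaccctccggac
Ackr3, chr1:90203730-90204029, plus strand: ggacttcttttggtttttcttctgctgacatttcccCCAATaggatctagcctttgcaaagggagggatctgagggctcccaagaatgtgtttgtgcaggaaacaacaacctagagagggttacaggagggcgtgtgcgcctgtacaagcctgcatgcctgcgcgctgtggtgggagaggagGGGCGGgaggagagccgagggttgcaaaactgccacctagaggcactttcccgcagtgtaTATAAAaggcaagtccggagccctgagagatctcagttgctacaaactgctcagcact
Serpine2, chr1:79858616-79858915, minus strand: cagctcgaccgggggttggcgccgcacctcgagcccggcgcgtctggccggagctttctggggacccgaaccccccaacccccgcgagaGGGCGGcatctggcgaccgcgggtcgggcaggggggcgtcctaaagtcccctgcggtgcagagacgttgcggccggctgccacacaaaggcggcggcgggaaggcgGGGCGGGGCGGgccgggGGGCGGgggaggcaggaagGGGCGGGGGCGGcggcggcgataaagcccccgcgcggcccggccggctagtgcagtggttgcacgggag
Of all 32851 RefSeq promoter windows of this length, 13.6% held the TATA box letters, 37.4% the CCAAT box letters and 35.7% the GC box letters. The Ackr3 window held 1 of each, the Pi16 window only 1 CCAAT box, the Sema3c window 3 GC boxes and the Serpine2 window 6. The 3 genes that were low in pancreatitis thus held different sets of these letters.

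EYFP negative runs 1, 2 and 3 held 17, 63 and 29 fibroblasts, and EYFP positive runs 1, 2 and 3 held 2, 5 and 5. Per library, the fibroblasts summed to between 14193 and 280033 UMIs, and the median fibroblast had 3970 UMIs and 1823 genes. Both libraries of a run shared cell barcodes, 23, 71 and 47 in runs 1, 2 and 3, while any other pair of libraries shared at most 2. Of the fibroblasts, 2 barcodes of run 2 were present in both libraries, with 653 and 1068 UMIs in the EYFP negative library and 7776 and 12040 in the EYFP positive one. Of the 460 and 607 genes of the shallow copies, 411 and 559 were also detected in the deep ones. Leaving out the shallower copy of every shared barcode removed these 2 fibroblasts. The largest fibroblast barcode, with 23232 UMIs in EYFP positive run 3, also appeared in EYFP negative run 3 as a barcode of 576 UMIs that was no fibroblast. All fibroblasts with an Xist UMI were in runs 1 and 2, where 3 of 87 carried Y-linked transcripts without Xist, and run 3 held 22 fibroblasts with Y-linked transcripts and none with Xist. Sex, run and pancreatitis therefore cannot be told apart for most cells.

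The marker genes themselves were part of the rule, so their levels only describe the cells chosen. All 8 genes were detected in 75 fibroblasts, 6 or 7 in 25, and 4 or 5 in the remaining 21, which were shallow, with a median of 869 UMIs. Col3a1 was detected in 98.3% of the fibroblasts, Dcn in 95.9% and Pdgfra in 72.7%. In the other kept barcodes, at a median of 4576.5 UMIs, these shares were 2.45%, 3.45% and 1.10%. Just inside the threshold, the 9 barcodes with exactly 4 markers had 57 Col3a1 and 16 Dcn UMIs in all. Just outside it, the 7 barcodes with 3 markers and none of the exclusion genes had 2 Col3a1 and 15 Dcn UMIs, at medians of 869 and 1156 UMIs per barcode. A further 50 barcodes had at least 4 markers and were left out for an exclusion gene, 36 of them for Plvap alone and 29 for a single UMI.

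Genes the rule did not name are given next as a description. Most were taken from those with the highest ratio of level in fibroblasts to other kept barcodes. Their high levels therefore do not check the fibroblast label. Fewer of the shallow cells with 4 or 5 markers carried Clec3b, Ogn, Dpt and Col14a1. Clec3b, which encodes the plasminogen-binding protein tetranectin, was detected in 87.6% of the fibroblasts at a mean of 2202 CPM (UMI counts scaled by the total of a library's fibroblasts) over the 6 libraries, against 20.2 CPM in the other kept barcodes. Other matrix genes were abundant too, with Ogn (osteoglycin) at 1559 CPM, Dpt (dermatopontin) at 1437 CPM, Col14a1 at 732 CPM and Fbln1 (fibulin 1) at 795 CPM. In the 21 fibroblasts with 4 or 5 markers, Clec3b was detected in 47.6%, Ogn in 33.3%, Dpt in 28.6% and Col14a1 in 14.3%. In the 75 with 8 markers these shares were 98.7%, 90.7%, 90.7% and 77.3%. The median depths were 869 and 6104 UMIs, and Clec3b had 854 and 2455 CPM. The label thus rests on less in the cells with few markers. Among secreted signals, the Wnt potentiator Rspo3 had the highest ratio of all genes considered, with 382 CPM against 1.29 CPM, followed by the activin antagonist Fst with 218 CPM against 0.900 CPM. Complement C3 (2288 CPM), the eosinophil chemokine Ccl11 (1147 CPM) and the enkephalin precursor Penk (1206 CPM) were also abundant, in 62.8%, 73.6% and 65.3% of the cells. Ptprc-bearing barcodes with under 4 of the 8 markers, at a median of 5431.5 UMIs, held a C3 UMI in 1.08% of cells and a Clec3b UMI in 0.570%. That limit keeps fibroblast-like barcodes out of the group, so low values there are partly set by its definition.

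**Figure D1:**
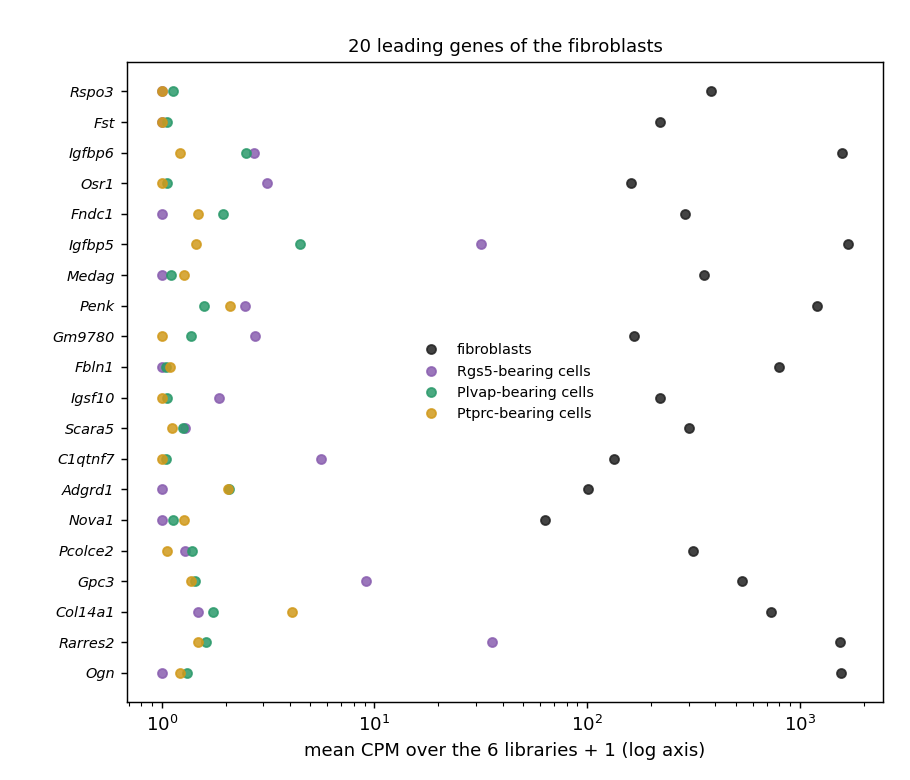
The 20 genes with the highest ratio of mean CPM in fibroblasts to other kept barcodes, outside the rule. The logarithmic axis gives mean CPM over the 6 libraries plus 1, for fibroblasts and for Rgs5-, Plvap- and Ptprc-bearing barcodes with under 4 of the 8 markers. Fibroblasts lie far to the right for every gene, down to Nova1 at 62.6 CPM, which follows in part from ranking by this ratio.

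Several markers of activated states were scarce. Acta2, the smooth muscle actin of myofibroblasts, had 1 UMI in 1 cell, and Il6 and the proliferation marker Mki67 had none in 121 cells. Postn (periostin) was detected in 8.26% of the fibroblasts, Timp1, an inhibitor of matrix metalloproteinases, in 17 of 121 cells, and the hedgehog target Gli1 in 5.79%. In EYFP negative runs 1, 2 and 3, Postn had 9, 9 and 7 UMIs, Timp1 had 0, 9 and 8, and Gli1 had 3, 2 and 2. Scaled by depth, Timp1 was highest in the pancreatitis library, at 0, 32.1 and 48.7 CPM, while Postn (93.6, 32.1 and 42.6 CPM) and Gli1 (31.2, 7.14 and 12.2 CPM) lay between the homeostasis runs. Timp1 and Gli1 were too low to be tested. Of 20 mitotic genes, 4 of 121 cells carried 2 or more, and with each cell thinned at random to 1500 UMIs 0 of 95 did.

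Markers of other cell types differed in level. Of the 6 endothelial markers Plvap was at 0 by the rule and Cdh5 and Cldn5 were at 0 without being part of it, and the 6 together summed to between 0 and 168 CPM per library. Macrophage markers summed to between 0 and 31.2 CPM, with C1qb and Csf1r at 0, and T cell markers to between 0 and 31.2 CPM, with Cd3e at 0. B or plasma cell markers summed to 520 and 314 CPM in EYFP negative runs 1 and 2 and to between 0 and 70.5 CPM elsewhere. Ductal markers summed to 1284 CPM in EYFP positive run 3 and to between 42.6 and 261 CPM elsewhere, and Schwann markers to between 0 and 232 CPM. The acinar transcript Ctrb1 was detected in 69.4% of the fibroblasts and in 75.8% of other kept barcodes. It was at 1642, 484 and 265 CPM in fibroblasts with 4 or 5, 6 or 7 and 8 markers. Where these UMIs came from was not tested. Acinar markers, at least 3 of 6 of them, were in 55 fibroblasts. Leaving that class aside, 6 cells carried at least 3 of 6 markers of another class or over 20% haemoglobin UMIs. One was the deepest cell of EYFP positive run 3, with all 6 mesothelial markers, and it gave 48.9% of that library's fibroblast UMIs. Another, in EYFP negative run 3, had 78.1% haemoglobin UMIs. A further 2 had Schwann markers.

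Fibroblasts made up 3.88%, 3.57% and 1.98% of kept barcodes in EYFP negative runs 1, 2 and 3. In EYFP positive runs 1, 2 and 3 they made up 0.240%, 2.67% (5 of 187) and 5 of 238 barcodes. EYFP positive run 1 was low, with 2 of 835 barcodes, and the groups overlapped, since EYFP positive runs 2 and 3 both exceeded EYFP negative run 3. The mean was 3.14% ± 1.02 (SD, n = 3) for EYFP negative and 1.67% ± 1.27 (SD, n = 3) for EYFP positive libraries, a difference of -1.47 percentage points that did not pass a two-sided exact permutation test (p = 0.3, where 0.1 is the smallest possible). Paired by run, the differences were -3.64, -0.896 and 0.123 percentage points and the sign-flip permutation test gave p = 0.5. Shares are of sorted cells, and the sort by EYFP divides all cell types between both libraries of a run.

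**Figure D2:**
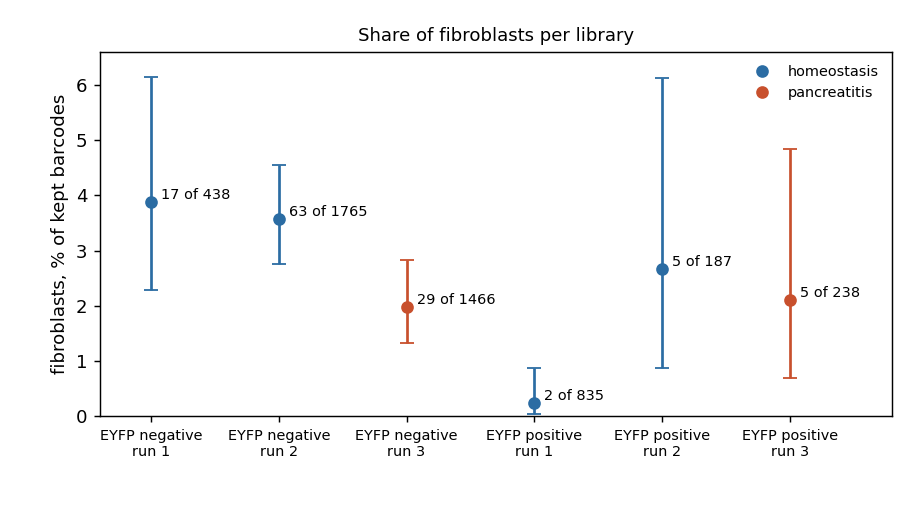
Fibroblasts as a percentage of kept barcodes in each of the 6 libraries, with exact (Clopper-Pearson) 95% binomial intervals that cover counting error only and the counts printed beside each point. EYFP positive run 1, at 0.240%, lies below all others, and the other 5 range from 1.98% to 3.88%.

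The first comparison of expression asked how fibroblasts differed 9 days after cerulein, in the EYFP negative libraries, which held most of the cells. Fibroblasts of the pancreatitis library had far fewer transcripts of the adventitial kind. Pi16, a secreted peptidase inhibitor family protein that marks adventitial fibroblasts, had 73 and 357 UMIs in homeostasis runs 1 and 2 and 4 in pancreatitis, which is 759 and 1275 CPM against 24.4 CPM. On the log2 scale Pi16 was lower by a fitted -5.43 (SE 0.82), with an adjusted p of 2.7e-08 by edgeR's quasi-likelihood test. Ackr3, a scavenger receptor for the chemokine CXCL12, had 40 and 78 UMIs against 0, so it was at least 17.2-fold lower when 3 counts over the group are taken as the floor. Sema3c, a secreted semaphorin, had 27 and 144 UMIs against 1, a ratio of 0.0134 (95% counting interval 0.000337 to 0.0757). The libraries of both conditions did not overlap for any of these genes. The rule that named the genes of largest change required this, so it adds no evidence.

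Of 3927 genes tested, outside the rule, 57 passed an adjusted p of 0.05 (1.45% of genes), 41 of them lower (1.04%) and 16 higher (0.407%) in pancreatitis, and 271 had an unadjusted p under 0.05. Of the adventitial fibroblast list, 9 of 17 tested genes fell and none rose, namely Ackr3, Sema3c, Pi16, Ly6c1, Pcolce2, Dpp4, Cd55, Gfpt2 and Anxa3. All 17 fitted log2 differences were below 0, and their median was -2.68 (-2.63 with the genes at 0 set to their bound), beside -0.03 over all genes tested. The list was chosen with earlier results of these data known, so its common direction is no independent evidence. Dpp4, a membrane peptidase that marks fibroblast progenitors in several tissues, had 10 and 72 UMIs against 5. Ly6c1, a GPI-anchored surface protein, had 40 and 106 against 2. Anxa3, an annexin of the adventitial list, differed by -2.63 (SE 0.67), edgeR adjusted p = 0.010. Of the parenchymal list, 1 of 14 tested genes passed, Vit (vitrin), which fell, and the list's median was 0.37. Col15a1, a basement membrane collagen and its defining gene, had 967 and 857 CPM against 1371 CPM, and the chemokine Cxcl14 had 146 and 261 CPM against 500 CPM. Neither passed, with edgeR adjusted p of 0.99 and 0.57.

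**Figure D3:**
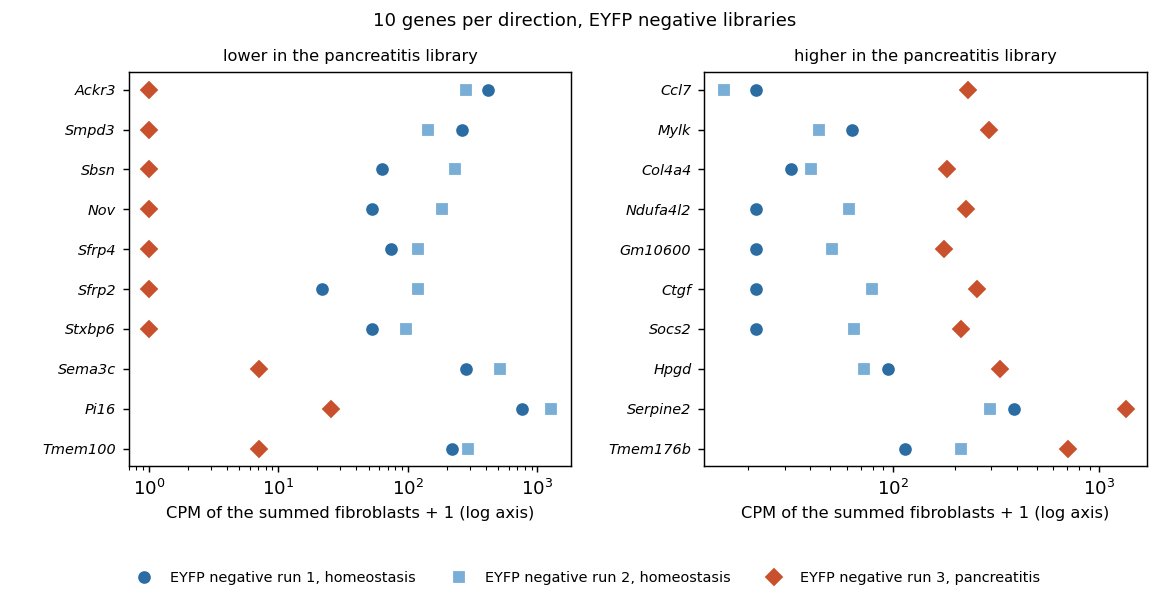
CPM plus 1 (logarithmic axis) of summed fibroblasts in the 3 EYFP negative libraries, for the 10 genes per direction with the largest change that passed the test; points at 1 stand for 0 UMIs. In the left panel the pancreatitis library had 0 UMIs of 7 genes and lies left of both homeostasis libraries for all 10. In the right panel it lies right of both. The genes were chosen to have no overlap between the libraries, so this separation is set by the choice.

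In the list of growth factors and their binding proteins, 5 of 24 tested genes fell and 1 rose (median -0.68). The other 18 did not pass. Those that fell were the Wnt antagonists Sfrp4 and Sfrp2, the matricellular protein Nov, and the IGF binding proteins Igfbp5 and Igfbp6. Sfrp4 had 7 and 33 UMIs against 0 (at least 5.82-fold lower), and Nov had 5 and 51 against 0 (at least 8.14-fold lower). Igfbp6 had 2100 and 1753 CPM against 384 CPM, lower by a log2 difference of -2.36 (SE 0.61, edgeR adjusted p = 0.012). In the fit of all 6 libraries the direction of Igfbp5 and Igfbp6 turned, to 2.14 and 0.068 (edgeR adjusted p = 0.65 and 0.99). The deepest cell of EYFP positive run 3 held 377 of 388 Igfbp5 UMIs and 132 of 153 Igfbp6 UMIs of its library. Igf1 itself, which the binding proteins hold, had 353 and 186 CPM against 359 CPM and did not pass (edgeR adjusted p = 0.99).

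Of the matrix glycoproteins, 2 of 25 fell, fibronectin (Fn1) and fibulin 3 (Efemp1), and the median was -0.29. Fn1 had 115 and 378 UMIs against 19, a log2 difference of -3.51 (SE 0.67, edgeR adjusted p = 4.9e-05). Efemp1 had 69 and 428 UMIs against 27, a log2 difference of -2.87 (SE 0.64, edgeR adjusted p = 0.0013). The collagens gave other values. None of 3 fibrillar collagens tested (Col5a1, Col5a2 and Col5a3, median 0.58) and none of 9 other collagens (median 0.50) passed, and the basement membrane chain Col4a1 had 1383 and 1975 CPM against 3771 CPM (edgeR adjusted p = 0.67). The rule genes, given as a description, had similar levels in the collagens (Col1a1 at 2079 and 1968 against 2126 CPM, Col3a1 at 3971 and 4967 against 6792 CPM) and lower levels of Gsn, the actin-severing protein gelsolin (27268 and 25865 against 12890 CPM).

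Fewer genes rose. Serpine2, a secreted inhibitor of thrombin and other serine proteases, was the only 1 of 16 tested proteases and inhibitors that passed, with 37 and 83 UMIs against 223, or 385 and 296 CPM against 1358 CPM. It was higher by a log2 difference of 1.97 (SE 0.51, edgeR adjusted p = 0.012), and 25 of 29 cells carried it. Mylk, the kinase of myosin light chains, had 6 and 12 UMIs against 48, in 16 of 29 cells, a difference of 2.48 (SE 0.55, edgeR adjusted p = 0.0011). Ctgf, a matricellular target of TGF-beta and YAP signalling, had 2 and 22 UMIs against 42, in 9 cells, and of the 9 tested genes of that target list it rose and Fn1 fell. Tmem176b, a membrane channel protein, had 114 and 214 CPM against 707 CPM. The monocyte chemokine Ccl7 had the largest rise, with 2 and 4 UMIs against 38 (log2 difference 3.71, SE 0.65, edgeR adjusted p = 4.3e-06), but 29 of the 38 were in 1 cell and only 3 cells carried it. None of 8 myofibroblast and contractile genes tested passed (median 0.17), nor any of 16 interferon response genes (median -0.47) or 5 stellate and vitamin A genes (median 0.38). Of 12 inflammatory fibroblast genes, Ccl7 rose and Ly6c1 fell (median -0.83). Of 11 circadian and steroid response genes, the clock repressor Nr1d1 and the clock output factor Dbp fell, with 9 and 57 UMIs against 3 and with 1 and 38 against 1 (median 0.51). The labels do not say at what hour tissue was taken, and its part was not tested.

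Transcripts of other cells moved between these libraries as well. The 4 haemoglobin genes that rose came mainly from 1 cell: Hbb-bs had 2, 184 and 4455 UMIs in runs 1, 2 and 3, of which 4291 were in that cell, and without the cell haemoglobin made up 0.199% of the UMIs in run 3. The immunoglobulin light chain Igkc fell from 44 and 74 UMIs to 0. Xist fell from 205 and 432 UMIs to 0 and the Y-linked Ddx3y had 0, 0 and 11. Without the 6 cells that carried markers of other classes or haemoglobin, 60 genes passed, 49 of the 57 among them. Leaving out the shallow copies of shared barcodes gave 50, all among the 57.

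The count of calls rests on how the spread was estimated. The fit had 1 residual degree of freedom, and edgeR set the prior degrees of freedom to infinity, so every gene's error came from the trend over all genes and not from its own 2 homeostasis values. Requiring 5 markers in place of 4 gave 5.25 prior degrees of freedom, 0 genes that passed (lowest adjusted p 0.181) and 211 with an unadjusted p under 0.05, although all 57 genes kept their direction. DESeq2 gave an adjusted p for 34 of the 57 genes. It called 11 genes, all lower, among them Pi16, Ackr3, Sema3c, Ly6c1, Fn1, Efemp1, Igfbp5 and Igfbp6. Serpine2 was not among them, though it kept its direction. Fitting all 6 libraries with EYFP as a covariate left 4 of 1527 genes (0.262%), Xist, Igkc and 2 haemoglobins, and Pi16 then had a log2 difference of -1.45 (SE 1.37) and an edgeR adjusted p of 0.79. In that fit all 15 tested adventitial genes were below 0, with a median of -1.30, and none passed. Of all 1527 genes, 725 were below 0, with a median of 0.06. The fit includes the same EYFP negative libraries, so this is no independent evidence.

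The EYFP positive libraries share no sample with this comparison, but they share its runs and hold only 12 fibroblasts. Of the genes lower in pancreatitis, leaving haemoglobin, immunoglobulin and sex-linked genes aside, 36 had UMIs there and 17 (47.2%) were lower in run 3 than in runs 1 and 2 pooled, where 48.4% of all genes were. Of the genes higher, 8 of 11 (72.7%) were higher in run 3, where 51.6% of all genes were. Pi16 had 3, 0 and 18 UMIs in EYFP positive runs 1, 2 and 3, and 17 of the 18 were in 1 cell. Without the deepest cell of EYFP positive run 3, 20 of 34 lower genes (58.8%) had the same direction, where 51.6% of all genes did. Of the higher genes 9 of 11 (81.8%) did, where 48.4% of all genes did. For the lower genes the share was thus slightly below that of all genes with every cell and above it without the deepest cell. With 12 cells it cannot be decided whether EYFP positive fibroblasts share the fall.

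Single cells show how the EYFP negative fibroblasts differed. With every cell thinned to 1500 UMIs, 3 of 12 cells in run 1 and 16 of 52 in run 2 held a Pi16 UMI, against 1 of 23 in run 3. These shares are 25.0% (exact interval 5.49% to 57.2%), 30.8% (18.7% to 45.1%) and 4.35% (0.110% to 21.9%). Unthinned, they were 35.3%, 36.5% and 6.90%, and Ptprc-bearing barcodes with under 4 of the 8 markers held Pi16 in 0.855%. Thinning left out 5, 11 and 6 shallower cells. Ackr3 was found in 25.0% and 21.2% of thinned homeostasis cells and in 0 of 23 pancreatitis cells, which allows a share of up to 13.0% by the limit of 3 counts and 14.8% by the exact interval. Col15a1 moved the other way, from 66.7% and 61.5% to 95.7%, and Serpine2 from 41.7% and 32.7% to 91.3%. Clec3b was in 91.7%, 90.4% and 87.0% of cells. For 2 other adventitial genes run 3 lay between the homeostasis runs. In runs 1, 2 and 3, Dpp4 was in 8.33%, 21.2% and 17.4% of cells and Mfap5 in 58.3%, 36.5% and 47.8%. Sema3c was in 8.33%, 26.9% and 0 of 23. At least 3 adventitial markers were found in 33.3%, 38.5% and 17.4% of cells. Cells of 1 library are not replicates, so these shares carry no test between conditions.

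**Figure D4:**
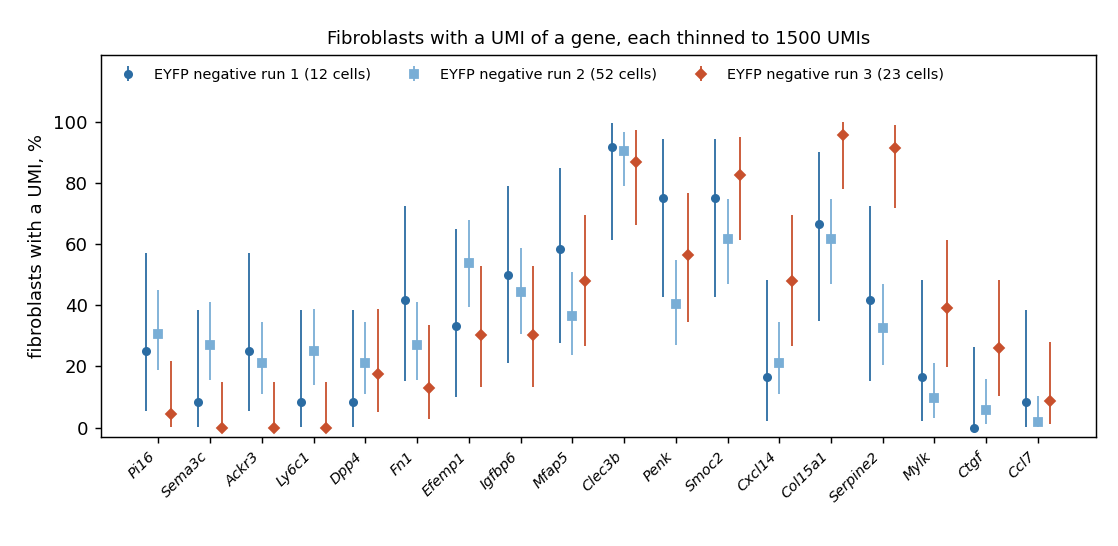
Percentage of fibroblasts with a UMI of each of 18 genes after thinning every cell to 1500 UMIs, in EYFP negative runs 1 and 2 (homeostasis, 12 and 52 cells) and run 3 (pancreatitis, 23 cells), with exact 95% binomial intervals that cover counting error only. Run 3 is lowest for Pi16 (4.35%) and highest for Col15a1 (95.7%) and Serpine2 (91.3%).

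The same genes were then described within homeostasis. Those cells are part of the sums on which the genes were chosen, so the counts below are no independent evidence. The 29 fibroblasts with a Pi16 UMI in EYFP negative runs 1 and 2 (190452 UMIs) were compared with the 51 without (185775 UMIs) in pooled CPM. The former were deeper, with medians of 12158 against 1653 UMIs in run 1 and 3595 against 2435 in run 2. Fn1 was at 2405 CPM in cells with Pi16 and 188 CPM in cells without, Efemp1 at 2326 and 291 CPM, Sema3c at 830 and 70.0 CPM, and Nov at 294 CPM and listed at 0. In the other direction, Cxcl14 was at 15.8 CPM with Pi16 and 452 CPM without, Serpine2 at 68.3 and 576 CPM, and Col15a1 at 578 and 1200 CPM. Of the 38 other genes lower in pancreatitis, 35 (92.1%) were higher in the cells with Pi16, as were 47.5% of all genes tested, and the exceptions were Clu, Dbp and Nr1d1. All 12 genes higher in pancreatitis were higher in the cells without Pi16, as were 52.5% of all genes, with no minimum set on the difference. Socs2, a feedback inhibitor of cytokine signalling, was nearly equal, with 10 UMIs in each group (52.5 and 53.8 CPM). Within run 1 the counts were 36 of 38 and 11 of 12, where 52.5% and 46.9% of all genes tested had these directions. Within run 2 they were 34 of 38 and 11 of 12, where 45.9% and 54.1% of all genes did.

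Fibroblasts without Pi16 also differed between conditions. Among them, 36 of the 38 lower genes had a lower CPM in pancreatitis and all 12 higher genes a higher one, where 46.9% and 53.0% of all genes did. The cells without Pi16 are part of the sums on which these genes were chosen, so the counts are no independent evidence. Serpine2 rose there from 576 to 1431 CPM and Mylk from 86.1 to 321 CPM, while Fn1 went from 188 to 114 CPM and Dpp4 from 53.8 to 26.7 CPM. Shallow cells can lack a Pi16 UMI by chance, and how far that sets the values of the cells without Pi16 was not tested.

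**Figure D5:**
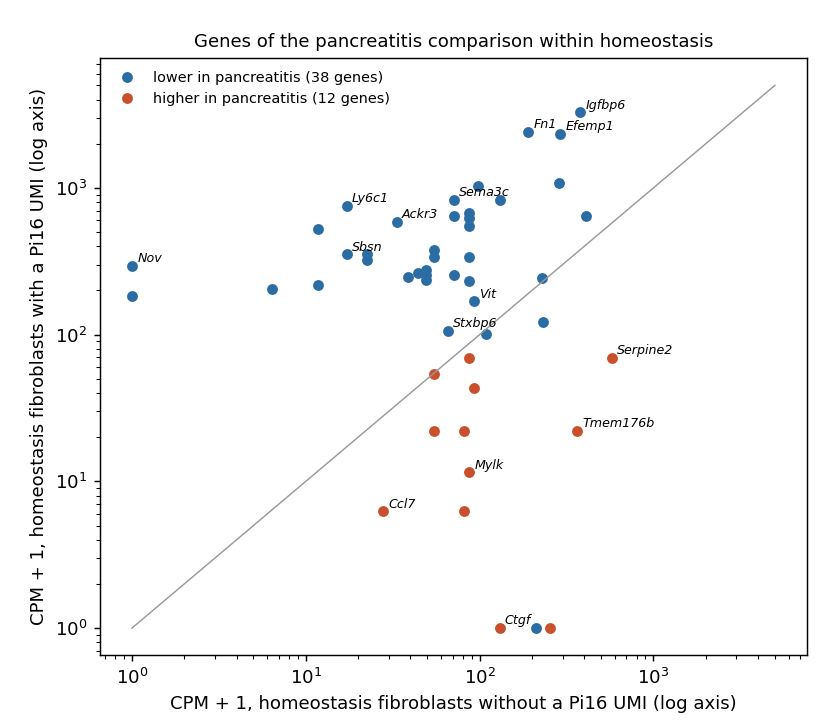
CPM plus 1 in homeostasis fibroblasts with (vertical) and without (horizontal) a Pi16 UMI, both axes logarithmic, for the 38 genes lower and 12 genes higher in pancreatitis; the line marks equal levels. Of the lower genes 35 lie above the line, and all 12 higher genes lie below it. The genes were chosen on sums that include these cells.

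The comparison of EYFP positive with EYFP negative fibroblasts asked whether the labelled sort held different fibroblasts. EYFP positive run 1, with 2 cells, was left out, and the model had condition as a covariate. Of 1949 genes, 5 passed (0.257%) and 183 had an unadjusted p under 0.05. Gas6, a ligand of the TAM receptor kinases, was higher in EYFP positive fibroblasts, with 166, 204 and 128 CPM in EYFP negative runs 1, 2 and 3 and 859 and 1726 CPM in EYFP positive runs 2 and 3. Its log2 difference was 2.87 (SE 0.50, edgeR adjusted p = 0.013), and EYFP positive run 1, outside the fit, had 1127 CPM. Mpp6, a membrane-associated guanylate kinase, was higher by 4.16 (SE 0.67, edgeR adjusted p = 0.012), with 2, 8 and 2 UMIs against 6 and 28. The haemoglobins Hba-a1, Hba-a2 and Hbb-bt were lower. Haemoglobin made up 5.52% of the fibroblast UMIs of EYFP negative run 3, and 0.199% without its cell of 78.1% haemoglobin UMIs.

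The values of Gas6 and Mpp6 lean on 1 other cell. The deepest cell of EYFP positive run 3, with the mesothelial markers, held 65 of the 82 Gas6 UMIs and 22 of the 28 Mpp6 UMIs of its library, and all 469 UMIs there of the secreted protease inhibitor Slpi. Without that cell Gas6 still passed (2.22, SE 0.51, edgeR adjusted p = 0.038), Mpp6 did not (edgeR adjusted p = 0.13), and without all 6 such cells no gene passed, while 99 had an unadjusted p under 0.05. With run as a replicate block, 30 of 3032 genes passed (0.989%), led by Slpi, the haemoglobins and the mesothelial marker Upk3b. Without EYFP positive run 2, so that run 3 with the deep cell was the only EYFP positive library, 86 passed, and without EYFP negative run 2 none did, with 66 at an unadjusted p under 0.05. Within the homeostasis runs, run 2 with 5 cells was the only EYFP positive library in the fit, so its spread is unknown. Pi16 and Ly6c1 were found in 0 of these 5 cells. EYFP negative run 1 held them in 35.3% and 17.6% of cells, and EYFP negative run 2 in 36.5% and 28.6%. Mfap5, also adventitial, was in 60.0% of the 5 cells, against 58.8% and 55.6%. Pi16 and Ly6c1 were each in 1 of 2 cells of EYFP positive run 1, outside the fit. So few cells cannot decide whether adventitial genes differ by EYFP. In the main fit, 0 of 15 tested genes of the adventitial list passed (median 0.09). Of the parenchymal list 0 of 13 did (median -0.60), beside a median of -0.07 over all genes. The axon guidance ligand Slit3 had 437, 400 and 481 CPM in EYFP negative runs and 90.5 and 0 CPM in EYFP positive runs 2 and 3, with an edgeR adjusted p of 0.096. The antisense transcript Kcnq1ot1, the matrix protease Adamts12, the metalloreductase Steap4 and the Rac GTPase-activating Arhgap24 were next and did not pass, nor did Rspo1 and Csrp2 above 0.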

How the data were processed

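Whole-number UMI counts per gene and barcode were deposited for 6 single-cell libraries. The submitters' processing notes name Cell Ranger 2.1.0 and the human build GRCh38, per the file headers the software version was 3.1.0, and the 31053 genes have mouse identifiers. Which mouse build was used is therefore not known here. No row names EYFP. Counts of the fibroblasts were summed per library and tested with edgeR 4.0.16 in R 4.3.3 (TMM scaling, filterByExpr, quasi-likelihood F test, Benjamini-Hochberg over all genes of the fit), with at least 5 cells per library, after the script was tested on simulated data. DESeq2 1.42.0 was an alternative. Standard errors come from the log2 change and its F value. Scrublet in scanpy 1.11.5 with 20 components marked 3 fibroblasts as doublets, which were kept. The cells, the gene lists and the rule for named genes were chosen with earlier results of these data known. For each direction the rule took 10 genes at most, by size of change, from those past the test with mean log2 CPM over 6 and no overlap between libraries, besides up to 4 genes per list and fixed markers, while haemoglobin, immunoglobulin, enzyme and sex-linked genes were treated as groups. The text names a selection of these genes. The libraries of a run carry the same run number and shared barcodes, and were taken as paired; the homeostasis differences of both EYFP groups correlated at 0.14 over 1957 genes, from 2 pairs.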

Additional observations from a re-analysis of the deposited data

Results flagged for a closer look

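The share of fibroblasts in EYFP positive minus EYFP negative libraries was below 0 in both homeostasis runs (-3.64 and -0.896 percentage points) and above 0 in the pancreatitis run (0.123 percentage points). Every run of one condition moved one way and the run of the other condition moved the opposite way, which is why the result is listed here. The difference between conditions was not tested, and it rests on 2, 5 and 5 EYFP positive cells. Requiring 5 markers, leaving out doublets or keeping stricter cells put the pancreatitis value below 0 as well, at -0.0929, -0.662 and -0.402 percentage points. No group had the 4 libraries needed to look for single outlying libraries.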

How the results depend on the processing

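Of 839 values of the single genes that passed, over the alternatives that tested them, 562 kept their direction and still passed, 274 kept their direction and no longer passed, and 3 turned. These were Igfbp5 (2.14), Igfbp6 (0.068) and Klf2 (0.71) in the pancreatitis fit of all 6 libraries, where 40 of 43 tested genes kept their direction. The 57 calls of pancreatitis against homeostasis became 11 with DESeq2, which gave an adjusted p for 34 of them. They became 0 with at least 5 markers and 8 with cells thinned to at most 3000 UMIs (which tests 1795 genes). With library sums thinned to the smallest there were 37, and with all 6 libraries 4. The other alternatives gave 41 to 68. Alternatives with Plvap allowed, capped cells, shared barcodes, cells of other classes and the deepest cell were chosen after seeing the data, as was leaving out libraries from the fit of all 6. Leaving out a library was not run for this comparison, which has 1 pancreatitis library and would keep no spread; in the fit of all 6 libraries it gave 0 (without EYFP negative run 1) to 74 (without EYFP negative run 3).

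The 5 calls of EYFP positive against negative became 2 with DESeq2, 41 without the low-count filter, 0 with at least 3 markers, 0 without cells of other classes, 0 with capped cells, 2 without haemoglobin, immunoglobulin and enzyme genes, 3 with all 6 libraries and 10 in the homeostasis runs. With the replicate block, which pairs libraries by run, there were 30. Leaving out 1 library gave 0 to 86 calls, the lowest when EYFP negative run 2 was absent and the highest when EYFP positive run 2 was. No paired analysis was possible for pancreatitis because homeostasis and pancreatitis share no run number. The difference in share stayed below 0, from -2.25 to -0.756 points, and 3 against 3 libraries cannot pass an exact permutation test at the threshold. With 12 EYFP positive fibroblasts, genes of low level are out of reach there.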

Other observations

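Other gene groups of the EYFP negative fibroblasts had few calls between pancreatitis and homeostasis by edgeR's quasi-likelihood test. Of 8 complement genes, Clu and Cd55, an inhibitor of complement on the cell surface, were lower (median log2 difference -0.70), and of 21 immediate-early genes Socs3 and Klf2 were (median -0.41). Socs3, a feedback inhibitor of cytokine signalling, had 54 and 20 UMIs in runs 1 and 2 and 6 in run 3, and Klf2, a transcription factor, had 15 and 65 against 7, though its direction turned in the fit of all 6 libraries (0.71, edgeR adjusted p = 0.85). Of 10 chemokines and cytokines, the alarmin Il33 was lower, with 14 and 44 UMIs against 5, beside the rise of Ccl7. Of 5 hedgehog pathway genes the co-receptor Cdon was lower, with 25 and 36 UMIs against 3. None of 7 proteoglycans (median 0.76), 20 mesenchymal transcription factors (median -0.16), 13 lipid handling genes (median -0.15), 13 oxidative stress genes (median -0.34) or 16 digestive enzyme genes (median 0.86) passed.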
